A study of Mus musculus with 10 samples.

Results

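Of 47 cytosolic ribosomal protein genes measured in mouse liver, 26 (55.3%) were lower and 0 were higher after deletion of Dicer1. Over all genes, 11.5% were lower and 8.62% higher, and of those with a mean signal of at least 12, 19.9% were lower. The count of 26 fell to 12 when the array median was subtracted. The median difference of the 47 genes was -0.24 on the log2 scale, which is 84.9% of the control level if the deposited logarithm is to base 2. The genes were found by symbol among probe sets with 1 symbol in the platform annotation (Rpl or Rps and a number, Rplp0, Rplp1, Rplp2 and Rpsa, without the S6 kinases and Rps19bp1). Where a gene had several probe sets, the brightest one by its mean of the 10 arrays stood for it. They are 47 of 12366 genes. Sorted by symbol alone, 22 were counted with the large subunit, 23 with the small subunit and 2 with the ribosomal stalk. The 22 include Rpl7l1, a ribosome biogenesis protein named after Rpl7. By gene biotype, 2 of the 47 genes, Rps4l and Rps15a-ps6, are transcribed pseudogenes.

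The mutant livers came from 5 mice of the genotype DicerloxP/loxP;Afp-Cre+, and 5 more livers came from mice labelled only as controls. All 10 mice were 28 days old, of mixed strain, and had been fasted for some hours before death, and each liver was hybridised to 1 array. Afp, whose regulatory sequence drives the Cre recombinase, is active in fetal hepatoblasts, which give rise to hepatocytes and bile duct cells. The labels do not give the genotype of the controls, the sex or any batch. Dicer1 averaged 5.75 ± 0.23 in mutants and 8.06 ± 0.04 in controls (SD, n = 5 each) on 1 probe set, and 7.06 ± 0.10 in mutants and 8.08 ± 0.10 in controls on the other. Pairs of arrays correlated between 0.970 and 0.993, and hepatocyte markers summed to 18.35 to 18.50 in mutants and 18.44 to 18.56 in controls on the log2 scale. Most of this sum comes from markers close to the highest value (16.65), such as Apoa1 at 16.34 in mutants and 16.44 in controls. At such levels an array may understate a difference.

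The cytosolic ribosome is built from a small subunit, which reads the messenger RNA, and a large subunit, which joins the amino acids. Each subunit holds ribosomal RNA and many proteins that are used in near-equal numbers, and the P proteins form a stalk on the large subunit that recruits elongation factors. Messenger RNAs of ribosomal proteins are abundant in liver and begin with a pyrimidine tract at their 5′ end, through which mTOR signalling controls their translation. The genes have many processed pseudogenes, so 1 probe set can collect signal from several near-identical sequences.

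The sequence at the start of these genes was read first, because the pyrimidine tract begins there. RefSeq promoter sequences of build GRCm38.p6 were matched by symbol for 40 of the 47 genes, and 30 bases around each annotated start were read on the strand of the gene, 15 before it and 15 from it onward. The windows below are of genes that fell with and without a run of at least 6 bases that are all C or T, and of Rps18 and Rplp2, which did not pass the test. Capitals mark the longest such run.
Rpl38, chr11:114668565-114668594, plus strand: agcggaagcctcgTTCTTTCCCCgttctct
Rps26, chr10:128626492-128626521, minus strand: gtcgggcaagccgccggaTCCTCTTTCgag
Rpl13a, chr7:45128731-45128760, minus strand: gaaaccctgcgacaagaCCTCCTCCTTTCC
Rpl35, chr2:39005117-39005146, minus strand: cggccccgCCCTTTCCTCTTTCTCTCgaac
Rps27l, chr9:66946071-66946100, plus strand: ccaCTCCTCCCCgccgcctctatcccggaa
Rpl41, chr10:128549154-128549183, minus strand: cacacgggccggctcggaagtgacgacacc
Rps4x, chrX:102189377-102189406, minus strand: ctgaggctgggcggagcaacccaggctcca
Rps18, chr17:33955651-33955680, minus strand: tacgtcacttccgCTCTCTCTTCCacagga
Rplp2, chr7:141447636-141447665, plus strand: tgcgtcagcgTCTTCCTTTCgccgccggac

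A run of at least 6 pyrimidines lay in this window, at 1 or more annotated starts, in 26 of the 40 ribosomal protein genes (65.0%), against 32.7% of 27025 genes in the table. Among the 24 of these that were lower in mutants 12 had such a run, and among the 16 that did not pass the test 14 had one. Runs anywhere in the window were counted, also those wholly before the annotated start, as in Rps27l. The windows depend on where RefSeq places the start, and a gene with no run in them can start elsewhere. The 7-base word CCGGAAG, the core of ETS factor motifs, was searched on both strands over 300 bases, 250 before the start and 50 after it. It was present in 20 of the 40 genes, against 9.9% of all genes. Of the genes that were lower 13 of 24 held the word, and of those that did not pass 7 of 16 held it.

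Deletion of Dicer1 was set against control livers with limma over all 12366 genes, and a gene was called at a Benjamini-Hochberg adjusted p under 0.05. Over all genes, 11.5% were called lower and 8.62% higher in mutants. Of the 47 ribosomal protein genes, 26 (55.3%) were called lower, 0 were called higher, and 43 had a difference below 0. Without adjustment, 34 were lower and 1 was higher at p under 0.05. The median of all genes was -0.01 (log2), so the shift of the ribosomal protein genes was larger than that of the whole array. In a bulk liver sample, fewer cells of a type and less RNA per cell cannot be told apart. Of the 26 calls, 17 held without any single array, and 8 (Rps28, Rpl7a, Rps10, Rpsa, Rpl37a, Rpl35, Rpl11 and Rps19) were lost without 6 to 9 of the 10 single arrays, at adjusted p from 0.0503 to 0.101. Fewer genes were lower in some settings: 17 without mutant replicate 1 or mutant replicate 3, 12 after subtraction of the array median, 15 after subtraction of the 75th percentile and 17 after cyclic loess.

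**Figure D1:**
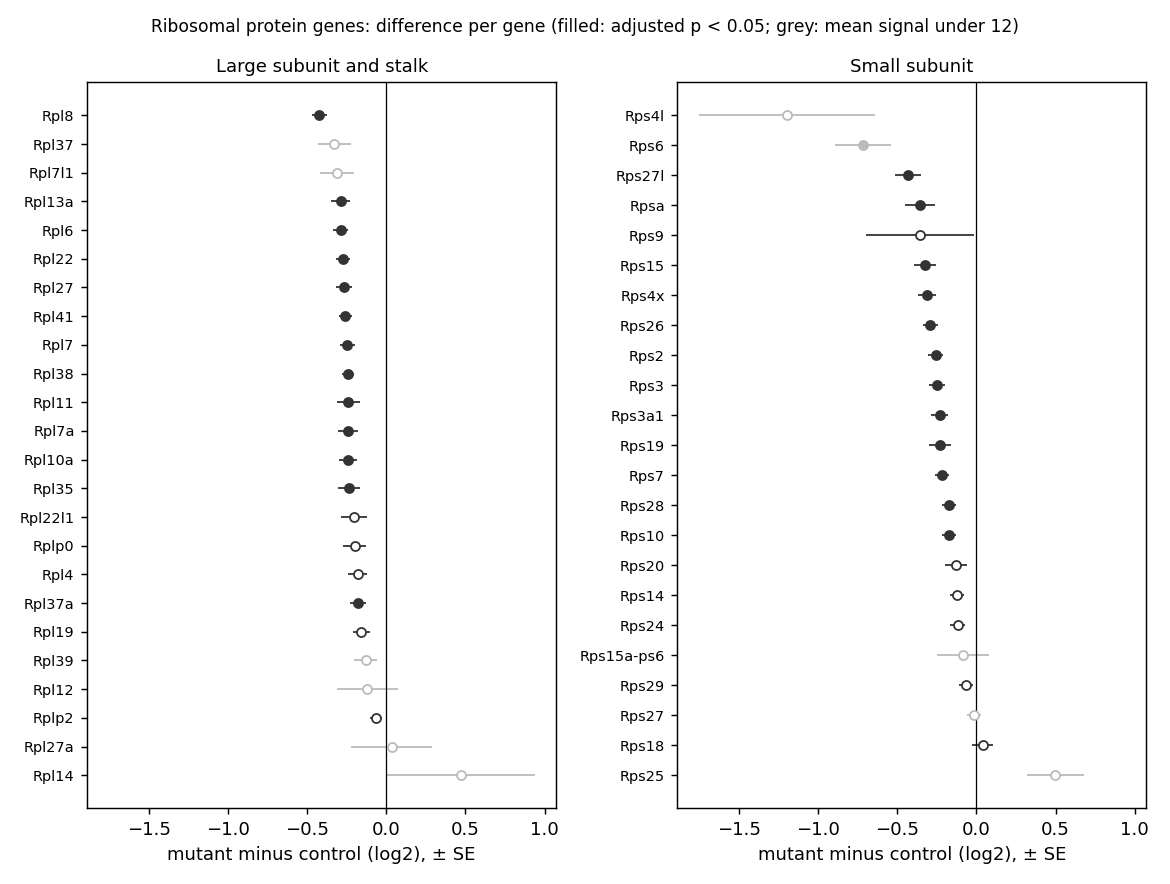
Difference between mutant and control livers (log2, x axis) for each of the 47 genes, with bars of 1 standard error. Filled points have an adjusted p under 0.05 and grey points a mean signal under 12. Most points with signal of at least 12 lie between -0.43 and 0, with Rps18 at 0.04.

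The signal divided the 47 genes into 36 bright ones, with a mean of at least 12 over all arrays, and 11 dim ones, with a mean of at most 9.36. The limit of 12 was set after the values were seen. Among the bright genes 25 were lower and 35 had a difference below 0, with a median of -0.24 and a range of -0.43 to 0.04. Of all genes with a mean of at least 12, 19.9% were called lower, and their median difference was -0.06. The other 754 bright genes ranged from -2.10 to 1.59. The differences of the bright ribosomal protein genes had an SD of 0.10 among themselves, and the median standard error of a single gene was 0.05. Of the 36, 24 lay between -0.3 and -0.15.

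**Figure D2:**
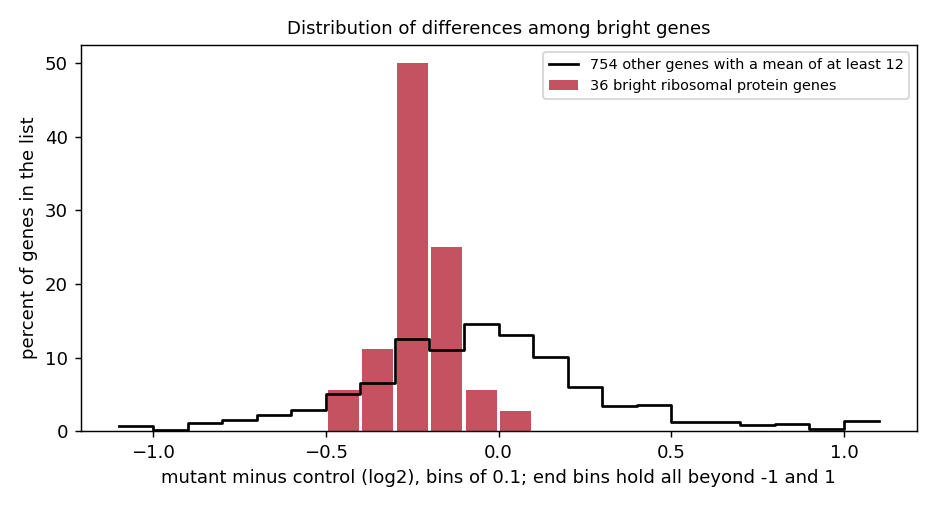
Percent of genes (y axis) by difference between mutant and control livers in bins of 0.1 (log2, x axis, end bins holding all values beyond), for 36 bright ribosomal protein genes (bars) and 754 other genes with a mean of at least 12 (line). The bin from -0.3 to -0.2 holds 50% of the ribosomal protein genes and 12.5% of the others.

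All mutant arrays lay below all control arrays for 21 of the 47 genes, against 6.99% of all genes. The same held for 20 of the 36 bright ones, against 128 of all 790 genes with a mean of at least 12. The opposite separation was seen for 0 of the 47, against 763 of all 12366 genes. The mean deviation of the 36 bright genes from their control means was -0.28, -0.16, -0.27, -0.26 and -0.18 in mutant replicates 1 to 5, and -0.08, 0.02, -0.04, 0.03 and 0.07 in control replicates 1 to 5. These array means did not overlap between the groups. The genes also moved together among the controls, since 30 of the 36 genes were below their control mean in control replicate 1, and 4 were in control replicate 5. The large subunit averaged between -0.31 and -0.19 over the mutants and between -0.06 and 0.06 over the controls, and the small subunit between -0.27 and -0.14 over the mutants and between -0.10 and 0.08 over the controls. Both subunits were below their control mean on every mutant array.

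**Figure D3:**
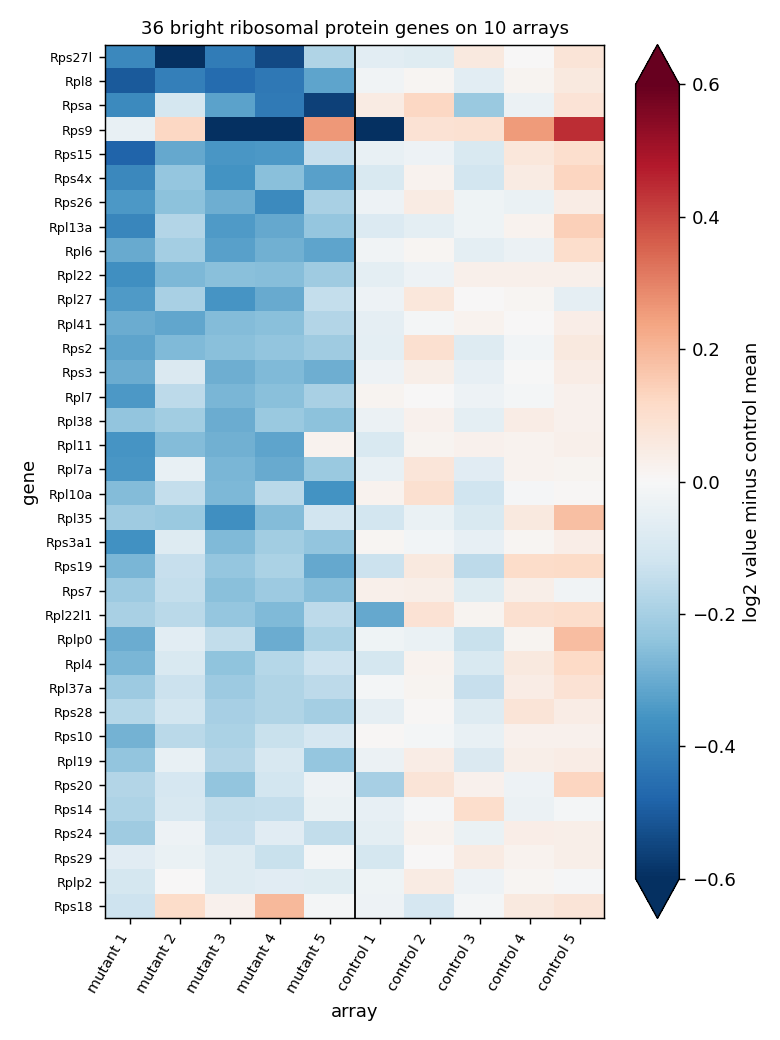
Deviation from the control mean (log2, colour) of 36 bright ribosomal protein genes (rows, ordered by difference) on 5 mutant and 5 control arrays (columns). Most rows are blue on all 5 mutant arrays. Rps9 changes with single arrays in both groups, and Rps18 at the bottom is not blue as a row.

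Mutant replicate 5 stood apart from the other mutants for genes with large differences, but less so for ribosomal protein genes. Genes that passed in a fit lacking this array, and moved by 1 or more there, were compared with the average of the 4 remaining mutants. In mutant replicate 5 the median gene showed 0.274 of that average change. For the mean of the bright ribosomal protein genes the share was 0.743. Mutant replicate 2 showed the opposite order, with shares of 1.285 for genes with large differences and 0.633 for the ribosomal protein genes. The difference between these shares was not tested. Without mutant replicate 5, 26 ribosomal protein genes were lower, and the median difference was -0.23.

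In the large subunit, 13 of 22 genes were lower and 0 were higher, with a median of -0.24. Rpl8, a protein near the peptidyl transferase centre, had the smallest p of the 47 genes. It stood at 12.37, 12.46, 12.41, 12.45 and 12.56 in mutant replicates 1 to 5, and at 12.85, 12.89, 12.81, 12.89 and 12.93 in control replicates 1 to 5. All mutants were below all controls, and the difference was -0.42 (SE 0.05, adjusted p = 0.00308). Rpl22, which binds RNA and has the paralog Rpl22l1, stood at 13.58, 13.68, 13.70, 13.69 and 13.73 in mutants and at 13.89, 13.91, 13.98, 13.98 and 13.98 in controls. The groups did not overlap, and the difference was -0.27 (SE 0.04, adjusted p = 0.00734). Rpl6, a surface protein of the large subunit, stood at 12.89, 12.99, 12.87, 12.90 and 12.87 in mutants and at 13.17, 13.20, 13.13, 13.16 and 13.30 in controls, without overlap. It fell by 0.29 (SE 0.05, adjusted p = 0.00737).

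Rpl41, among the smallest ribosomal proteins, averaged 13.82 ± 0.05 in mutants and 14.07 ± 0.04 in controls (SD, n = 5 each), a difference of -0.26 (SE 0.04, adjusted p = 0.00734). Of its other 3 probe sets, 1 bright one differed by -0.12, and 2 dim ones differed by 0.00 and 0.17. Rpl38, which in mouse embryos is needed for translation of a set of Hox messenger RNAs, averaged 13.96 ± 0.03 in mutants and 14.21 ± 0.05 in controls, a difference of -0.24 (SE 0.04, adjusted p = 0.00764). Rpl7 averaged 13.70 ± 0.07 in mutants and 13.95 ± 0.02 in controls, a difference of -0.24 (SE 0.04, adjusted p = 0.00968). Rpl27 fell by 0.27 (SE 0.05, adjusted p = 0.0125) and Rpl13a, which in human and mouse myeloid cells also silences inflammatory messenger RNAs, by 0.29 (SE 0.06, adjusted p = 0.0139). The 4 probe sets of Rpl13a differed by -0.29 to -0.36.

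The other large subunit genes that passed were Rpl10a (-0.24), Rpl7a (-0.24), Rpl37a (-0.18), Rpl35 (-0.24) and Rpl11 (-0.24), with adjusted p from 0.0219 to 0.0456 by limma. Rpl11, which binds the p53 ligase MDM2 when ribosome assembly is disturbed, stood at 12.55, 12.64, 12.62, 12.59 and 12.93 in mutants and at 12.82, 12.92, 12.93, 12.92 and 12.93 in controls. Mutant replicate 5 was as high as the controls. Without it the difference was -0.31 (adjusted p = 0.00174), whereas leaving out any other single array ended the call (adjusted p from 0.057 to 0.0989). Rpl4 (-0.18), Rpl19 (-0.16), Rpl22l1 (-0.20) and the dim Rpl37 (-0.33) and Rpl7l1 (-0.31) had adjusted p from 0.0521 to 0.109. Rpl22l1 passed without control replicate 1 (adjusted p = 0.0165). A second probe set of Rpl7l1, of nearly the same signal, averaged 8.80 ± 0.17 in mutants and 9.30 ± 0.05 in controls (SD, n = 5 each), a difference of -0.50 (SE 0.08, adjusted p = 0.00873 over all probe sets by limma). The remaining 4 large subunit genes were dim: Rpl39 (-0.13), Rpl12 (-0.12), Rpl27a (0.03) and Rpl14 (0.47) did not pass, with adjusted p from 0.230 to 0.964.

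In the small subunit, 13 of 23 genes were lower and 0 were higher, with a median of -0.23. Rps27l, a paralog of Rps27 whose gene is a target of p53, stood at 13.52, 13.28, 13.49, 13.37 and 13.73 in mutants and at 13.84, 13.84, 13.96, 13.91 and 13.99 in controls. All mutants were below all controls, with mutant replicate 5 the highest of them. It fell by 0.43 (SE 0.08, adjusted p = 0.0110), and its 3 probe sets, all bright, differed by -0.43 to -0.51. Rps26, which lies where messenger RNA leaves the small subunit, stood at 12.99, 13.09, 13.05, 12.96 and 13.14 in mutants and at 13.31, 13.39, 13.31, 13.30 and 13.38 in controls. There was no overlap, and the difference was -0.29 (SE 0.05, adjusted p = 0.00749).

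Rps2, on the messenger RNA entry side, averaged 13.41 ± 0.04 in mutants and 13.67 ± 0.07 in controls (SD, n = 5 each), a difference of -0.26 (SE 0.05, adjusted p = 0.00988). Rps4x, the X-linked member of its family, averaged 13.94 ± 0.07 in mutants and 14.26 ± 0.10 in controls, a difference of -0.31 (SE 0.06, adjusted p = 0.0110). Rps15, a protein close to the decoding site, averaged 12.98 ± 0.12 in mutants and 13.31 ± 0.08 in controls, a difference of -0.32 (SE 0.07, adjusted p = 0.0146). A second Rps15 probe set differed by -0.29. Rps7 (-0.22), Rps3 (-0.25), Rps3a1 (-0.23), Rps28 (-0.17) and Rps10 (-0.17) also passed, with adjusted p from 0.0115 to 0.0287 by limma, and none of the 5 overlapped between groups. Rps19, mutated in human Diamond-Blackfan anaemia, fell by 0.23 (SE 0.07, adjusted p = 0.0459), with groups that overlapped. Rpsa, which is also known as a laminin receptor, stood at 11.81, 12.09, 11.88, 11.77 and 11.63 in mutants and at 12.25, 12.32, 11.97, 12.16 and 12.28 in controls. Mutant replicate 2 lay above control replicate 3, and the difference was -0.36 (SE 0.09, adjusted p = 0.0295).

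**Figure D4:**
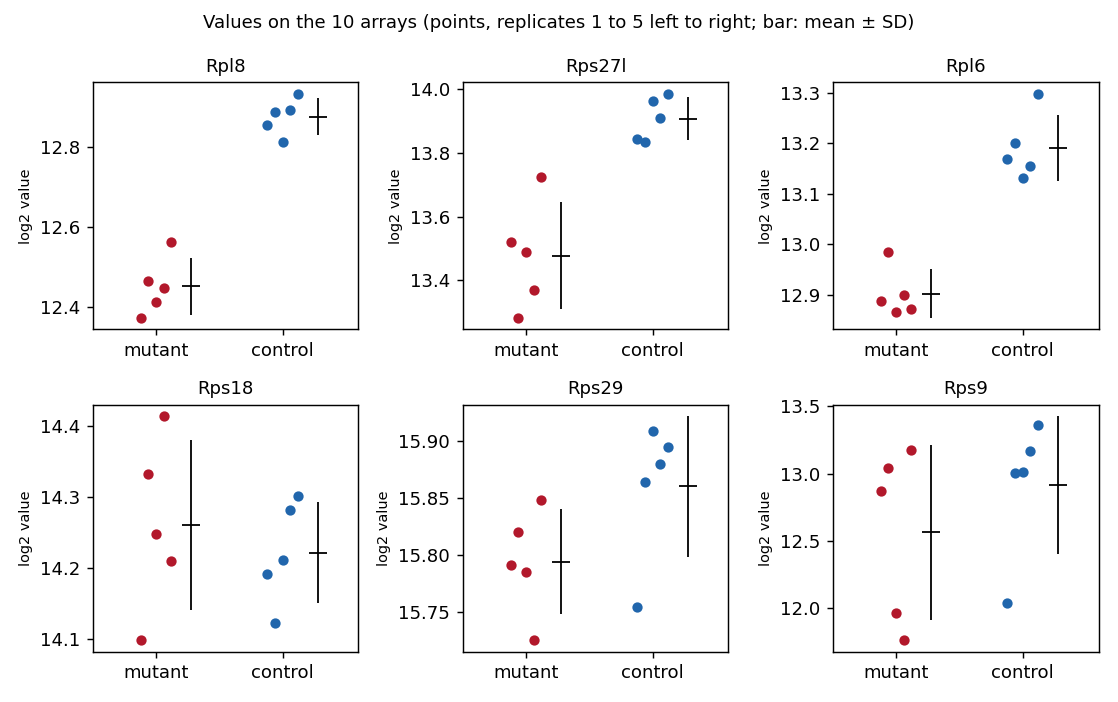
Log2 values (y axis) of 6 genes on 5 mutant and 5 control arrays (points), with the mean and SD. Rpl8, Rps27l and Rpl6 do not overlap between groups, Rps18 and Rps29 do, and Rps9 falls to about 12 on 2 mutant arrays and 1 control array.

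Rps6, the substrate of the S6 kinases, had the largest difference among the genes that passed, but its probe set with 1 symbol was dim. It stood at 7.15, 7.40, 7.07, 7.17 and 7.18 in mutants and at 7.54, 7.58, 8.10, 7.83 and 8.51 in controls, without overlap. The difference was -0.72 (SE 0.18, adjusted p = 0.0234), and the call was lost without mutant replicate 1, 3 or 4 or control replicate 3 (adjusted p from 0.0507 to 0.0561) and with a replicate block (0.0534). No other probe set carries the Rps6 symbol alone.

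Rps18 was the 1 bright gene of the 47 whose difference was above 0. It stood at 14.10, 14.33, 14.25, 14.41 and 14.21 in mutants and at 14.19, 14.12, 14.21, 14.28 and 14.30 in controls, and the groups overlapped. The difference was 0.04 (SE 0.07, adjusted p = 0.742), and its other bright probe sets differed by 0.02 and 0.09. Rps29, a small zinc-binding protein, averaged 15.79 ± 0.05 in mutants and 15.86 ± 0.06 in controls (SD, n = 5 each). The difference was -0.07 (SE 0.05, adjusted p = 0.341). Its signal is close to the top of the scale (16.65), where an array may understate a difference. The other Rps29 probe sets, with lower means of 14.36 and 13.76 over all arrays, differed by -0.09 and -0.08. Neither passed (adjusted p = 0.156 and 0.303 over all probe sets by limma). Rps14 (-0.12), Rps24 (-0.12) and Rps20 (-0.13) had adjusted p from 0.0973 to 0.217. The result for Rps14 depended on the probe set: its second bright one stood at 13.07, 13.09, 13.05, 13.05 and 13.05 in mutants and at 13.32, 13.32, 13.34, 13.30 and 13.21 in controls, without overlap. It differed by -0.23 (SE 0.04, adjusted p = 0.00781 over all probe sets), and the mean of both Rps14 probe sets by -0.18 (adjusted p = 0.0168). These 5 genes were described because they lie at the upper end of the differences, and that they differ from the other members was not tested.

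Rps9, which helps fix decoding accuracy, varied between arrays more than between groups. It stood at 12.87, 13.04, 11.96, 11.76 and 13.18 in mutants and at 12.04, 13.01, 13.01, 13.17 and 13.36 in controls. Mutant replicates 3 and 4 and control replicate 1 lay about 1 unit below the rest, and the difference was -0.35 (SE 0.34, adjusted p = 0.518). A second bright probe set of Rps9 stood at 12.31, 12.46, 12.45, 12.43 and 12.50 in mutants and at 12.56, 12.65, 12.44, 12.62 and 12.66 in controls, and those 3 arrays did not stand apart on it. Rpl14, on its dim probe set, had high and low arrays in both groups, at 6.71, 7.12, 7.41, 5.42 and 5.22 in mutants and 6.84, 5.48, 5.67, 5.65 and 5.89 in controls.

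The pseudogene Rps4l ranged more widely than any other of the 47 genes. It stood at 9.20, 7.32, 8.26, 9.26 and 9.78 in mutants and at 11.27, 8.86, 9.30, 9.95 and 10.40 in controls. The groups overlapped, and the difference was -1.20 (SE 0.56, adjusted p = 0.161). Rps25 was the dim gene with the largest difference above 0, with 6.19, 6.35, 6.11, 5.81 and 5.44 in mutants and 5.72, 5.57, 5.45, 5.57 and 5.09 in controls. It differed by 0.50 (SE 0.18, adjusted p = 0.0806). Without mutant replicate 5, which lay within the controls, the difference was 0.63 (adjusted p = 0.0129). Rps27 and Rps15a-ps6 differed by -0.01 and -0.09 on dim probe sets and did not pass (adjusted p = 0.872 and 0.775 by limma). For Rps27 the signal, 3.57 in mutants and 3.59 in controls, lies below the 25th percentile of all values, 3.60.

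The stalk was measured through Rplp0 and Rplp2, and 0 of the 2 passed. Rplp0, the scaffold of the stalk, stood at 13.76, 13.99, 13.90, 13.75 and 13.86 in mutants and at 14.03, 14.01, 13.92, 14.07 and 14.23 in controls. Only mutant replicate 2 reached into the control range, and the difference was -0.20 (SE 0.07, adjusted p = 0.0760). Rplp2, which binds elongation factors with Rplp1, averaged 14.87 ± 0.04 in mutants and 14.93 ± 0.03 in controls (SD, n = 5 each), a difference of -0.06 (SE 0.04, adjusted p = 0.280).

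Paralogs were compared with their parent genes by the difference of each pair on every array, with a two-sided exact permutation test over all splits of the arrays. For Rpl22l1 and Rpl22 the change differed by 0.07 (p = 0.460, 0.595 after adjustment over 3 pairs, exact permutation). For Rpl7l1, a ribosome biogenesis protein named after Rpl7, and Rpl7 it differed by -0.07 (exact permutation p = 0.595, also after adjustment). This used the brighter Rpl7l1 probe set, and the pair was not tested with the second one, which was further from Rpl7. The third pair, Rps27l and Rps27, gave no comparison of paralogs, because the Rps27 probe set averages below the 25th percentile of all values in both groups and the difference of the pair restates that of Rps27l.

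The decrease was present across probe sets. The 47 genes have 94 probe sets with 1 symbol, of which 45 were lower and 0 were higher when p-values were adjusted over all 25958 probe sets, against 7.39% lower over all. Of 65 bright ones 38 were lower and 62 had a difference below 0. Of the genes with at least 2 bright probe sets, 17 in number, 16 had every bright probe set below 0, and the exception was Rps18. Another 102 probe sets carry a ribosomal protein symbol together with other symbols, and 45 of them were lower and 0 higher, with a median of -0.20. The probe sets that end in _a_at or _x_at may share sequence with related transcripts. Genes represented by such a probe set were lower in 14 of 18 and 8 of 14 cases, and those with a plain name in 3 of 14, of which 10 were dim.

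Other genes of the translation system were described from lists of known members. Over all genes 11.5% were called lower, and 19.9% of those with a mean of at least 12. The first list held 17 measured translation factors and other genes whose messenger RNAs begin with a pyrimidine tract like those of ribosomal proteins. Their means over all arrays ranged from 10.60 to 15.34. Of the 17 genes, 4 were lower (23.5%, near the share of bright genes) and 0 higher, with a median of -0.11. These were the elongation factor subunits Eef1d (-0.39, SE 0.04, adjusted p = 0.00355) and Eef1b2 (-0.30, SE 0.07, adjusted p = 0.0203), and the initiation factors Eif3h (-0.27, SE 0.05, adjusted p = 0.00859) and Eif4b (-0.23, SE 0.06, adjusted p = 0.0211). The elongation factor Eef1a1 differed by 0.01 and Eef2 by -0.11, and neither passed (adjusted p = 0.973 and 0.210 by limma).

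Of 50 ribosome biogenesis factors, 13 were lower (26%, against 11.5% of all genes) and 0 were higher, with a median of -0.31. Nop10, a small protein of the H/ACA particles that modify ribosomal RNA, fell by 1.08 (SE 0.15, adjusted p = 0.00547). Nhp2, its partner there, fell by 1.29 (SE 0.30, adjusted p = 0.0193). Dkc1, the enzyme of the same particles, fell by 0.66 (SE 0.15, adjusted p = 0.0169). Gar1, also of these particles, differed by -0.23 and did not pass (adjusted p = 0.427 by limma). Wdr12, a large subunit assembly factor, fell by 0.63 (SE 0.11, adjusted p = 0.00866), and Nip7 by 0.73 (SE 0.13, adjusted p = 0.00926). Utp20, of the small subunit precursor, fell by 0.51 (SE 0.10, adjusted p = 0.0114). The nucleolar protein Ncl differed by 0.01 and fibrillarin, Fbl, by -0.21, and neither passed. Of 17 genes of the RNA polymerase I machinery, which makes ribosomal RNA, 5 were lower (29.4%) and 0 higher. Among the 5 were Polr1d at -0.48 (SE 0.12, adjusted p = 0.0274) and Znrd1 at -0.68 (SE 0.18, adjusted p = 0.0291). Of the 5, Polr1d, Polr2e and Polr2h are also subunits of other RNA polymerases. Polr1a differed by 0.48 and did not pass (SE 0.21, adjusted p = 0.138 by limma). Of the 17 genes, 14 had a difference below 0.

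Of 29 genes of the mTOR pathway that controls these messenger RNAs, 4 were lower (13.8%) and 2 were higher, near the 11.5% and 8.62% of all genes. Among those called, Eif4ebp1, a repressor of translation, fell by 1.11 (SE 0.22, adjusted p = 0.0128), and Lamtor4, a lysosomal scaffold, by 0.90 (SE 0.15, adjusted p = 0.00840). Rragd, a GTPase that recruits mTOR, rose by 2.41 (SE 0.49, adjusted p = 0.0129) over a control mean of 3.30, below the 25th percentile of all values. Mtor and Larp1, which binds the pyrimidine tract, differed by 0.07 and 0.22 and did not pass (adjusted p = 0.542 and 0.134 by limma).

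The 76 mitochondrial ribosomal protein genes, which serve the separate ribosome of mitochondria, had 44 lower (57.9%) and 0 higher, with a median of -0.43. Their mean on mutant replicates 1 to 5 was -0.49, -0.70, -0.39, -0.64 and -0.11 relative to controls, so mutant replicate 5 was the least lowered by them, while for the bright cytosolic genes it was mutant replicate 2. That the 2 families differ was not tested.

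**Figure D5:**
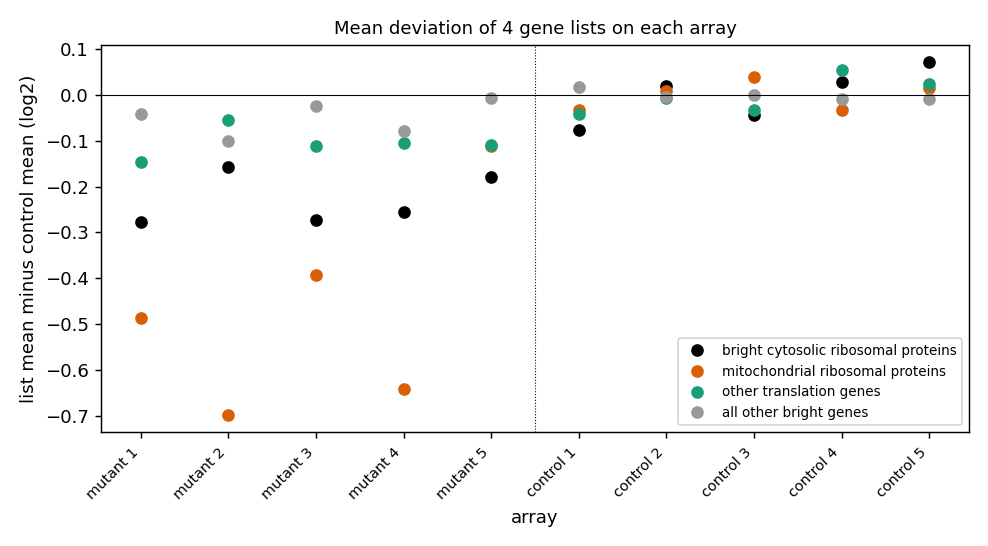
Mean deviation from the control mean (log2, y axis) of 4 gene lists on each array (x axis). The bright cytosolic ribosomal protein genes lie between -0.28 and -0.16 on the mutant arrays and between -0.08 and 0.07 on the control arrays. All other bright genes lie between -0.099 and -0.007 on the mutant arrays and between -0.009 and 0.018 on the control arrays.

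Macrophage and stellate cell markers were higher in mutants, and most markers of other cells did not pass. Over all genes, 8.62% were called higher and 11.5% lower. Of 11 macrophage markers 8 were higher and 0 lower, with summed levels of 14.37 to 14.89 in mutants and 13.51 to 14.32 in controls. Of 9 stellate cell markers 5 were higher, with 14.48 to 15.09 in mutants and 14.09 to 14.30 in controls. Of 10 endothelial markers 2 were lower (12.61 to 12.82 in mutants, 12.74 to 13.15 in controls), and 0 were higher. Of 7 lymphocyte markers 1 was higher, Ptprc at 0.75, which all leukocytes express, macrophages included. The summed lymphocyte level (9.20 to 9.90 in mutants, 8.64 to 9.39 in controls) is mostly Ptprc, and the B cell genes Cd79b, Ms4a1 and Ighm differed by -0.35, -0.21 and -0.23 and did not pass. Of 7 biliary markers 1 was higher, Prom1 at 4.03, and it makes up most of the summed level in mutants (9.40 to 11.35 in mutants, 7.85 to 8.73 in controls). Krt7, Krt19, Sox9, Epcam, Cftr and Cd24a did not pass. Of 7 erythroid, 5 neutrophil and 14 proliferation markers 0 passed. Their summed levels overlapped, at 9.72 to 10.91 in mutants and 10.07 to 11.16 in controls, at 9.12 to 11.23 in mutants and 7.82 to 10.02 in controls, and at 11.58 to 12.52 in mutants and 11.71 to 12.33 in controls. The defining markers Hba-a2, Rhag, Cd2, Il7r, Mpo, Prtn3, Krt7, Cftr, Aurka and Plk1 averaged below 3.60 in both groups. The part of these cells in the ribosomal protein differences was not tested. The signal of the 3′ minus the 5′ control probe sets, a sign of RNA quality, was 0.83 to 1.04 in mutants and 0.88 to 0.98 in controls for beta-actin, and -0.60 to -0.45 in mutants and -0.58 to -0.48 in controls for Gapdh, and the groups overlapped.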

How the data were processed

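Log2 values of 5 mutant and 5 control arrays, by probe set, were deposited by the authors. The scale was read from the values (0.27 to 16.65, array medians 6.40 to 6.67); the log base and the normalization were not given in the sources used here, so percents of the control level depend on base 2. Of 25995 probe sets, 37 were control probe sets and were left out. Of the remaining 25958, 21613 had 1 symbol, 638 several and 3707 none.

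Mutant minus control differences were tested two-sided in R 4.3.3 (limma 3.58.1, lmFit, eBayes), and p-values were adjusted by Benjamini-Hochberg across the genes. The fit was tested on simulated data. Symbols, biotypes and promoters came from RefSeq (GRCm38.p6), and all 47 symbols matched. The number of arrays limits the precision, and the labels do not tell litters apart, so p-values cover only the variation among these 10 samples.

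The genes and lists were chosen with earlier results of these data known. Genes named followed a written rule. It took Dicer1, the 10 called genes with the smallest p and the 5 largest differences each way. It also took the stalk, Rpsa, Rps6, Rps19, Rpl11, the paralog pairs and up to 4 genes per other list. The remaining members, Eef1a1, Eef2, Fau, Nhp2, Dkc1, Gar1, Ncl, Fbl, Polr1a, Mtor, Larp1, Mycl, Cdkn1a and Mdm2 were added after their values were seen. Summed marker levels are the log2 of the sum of unlogged values. Alternatives were other normalizations, filters, probe set rules, variance models, array weights, a replicate block and leaving out each array. Same-numbered mutant and control arrays deviated from their group means with correlations of -0.18 to 0.09. These values show no sign of pairing by number. They cannot tell whether same-numbered mice shared a litter or a batch, which the labels do not give.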

Additional observations from a re-analysis of the deposited data

Results flagged for a closer look

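Within groups of 5 arrays, 94 such groups of the 47 genes were examined, and in 9 of them 1 array stood far from the other 4 (Dixon's gap over range above 0.71). Chance alone gives about 1 in 20 groups. Mutant replicate 5 was high for Rpl11, at 12.93 against 12.55 to 12.64 in the other mutants, and for Rpl37, at 9.10 against 8.73 to 8.78. Mutant replicate 2 was high for Rps3, at 13.78 against 13.57 to 13.60. Control replicate 1 was low for Rpl11, at 12.82 against 12.92 to 12.93 in the other controls, for Rpl22l1, at 12.70 against 13.02 to 13.11, and for Rps9, at 12.04 against 13.01 to 13.36. Control replicate 5 was low for Rpl39, at 7.15 against 7.40 to 7.48. Control replicate 3 was high for Rps14, at 13.60 against 13.44 to 13.48. Control replicate 2 was high for the dim Rps15a-ps6, at 4.85 against 4.04 to 4.22.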

How the results depend on the processing

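The median difference of the ribosomal protein genes stayed below 0 under the 20 alternatives run, single arrays left out included. It was -0.182 after quantile normalization, -0.168 after cyclic loess and -0.127 over the 23 genes left without probe sets ending in _x_at, _s_at or _a_at. The number lower was 12 with the array median subtracted, 15 with the 75th percentile subtracted, 17 after cyclic loess, and 5 of 23 without those probe sets, where fewer and dimmer probe sets were tested; leaving out single arrays gave 17 to 26. The number higher was 1, Rps25, with array weights and with the replicate block, and 0 to 1 without single arrays. The replicate block gave 20 lower genes; 1 of 5 mutant arrays correlated best with the control of its number. Of 26 called genes, 9 (Rpl8, Rpl22, Rpl6, Rps26, Rps2, Rps27l, Rps4x, Rpl13a and Rps15) kept their call in every setting that measured them, and 8 lost it in 10 or more. Of 21 others, 8 were called in at least 1 setting. Signs turned for Rps27 (0.014 with the 75th percentile subtracted, -0.039 to 0.004 without single arrays), Rplp2 and Rps29 (0.006 and 0.005 after cyclic loess), Rps3 (0.050 over all its probe sets, 0.347 on its plain probe set), Rpl41 (0.171 on its plain probe set), Rpl27a (-0.210 to 0.138 without single arrays, -0.043 without mutant replicate 2) and Rps15a-ps6 (-0.176 to 0.054). The cause of these changes was not tested.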

Other observations

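Rpl13a, Rplp0 and Rps18 are common reference genes in PCR work. Rpl13a was 14.62 ± 0.09 in mutants and 14.91 ± 0.09 in controls (SD, n = 5 each, adjusted p = 0.0139 by limma). Rplp0 was 13.85 ± 0.10 in mutants and 14.05 ± 0.12 in controls (adjusted p = 0.0760), and Rps18 was 14.26 ± 0.12 in mutants and 14.22 ± 0.07 in controls (adjusted p = 0.742), and neither passed. These genes were picked after their values were seen, and the differences between them were not tested.

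Over all genes 11.5% were lower and 8.62% higher, and the shares in the lists of p53 readouts and of Rps6 kinases and phosphatases were near these. Of 10 genes of the Myc network, which activates ribosome production in growing cells, 3 were higher and 2 lower. Myc rose by 1.86 (SE 0.46, adjusted p = 0.0237) and Mxd1, a Myc antagonist, by 1.35 (SE 0.37, adjusted p = 0.0336), while Mycl fell by 1.02 (SE 0.29, adjusted p = 0.0374) and Mxi1 by 0.69 (SE 0.17, adjusted p = 0.0222). Of 10 genes that read out p53 and nucleolar stress, 1 was higher and 1 lower. Ccng1 rose by 0.84 (SE 0.18, adjusted p = 0.0151) and Aen, a nuclease, fell by 1.08 (SE 0.18, adjusted p = 0.00749). Cdkn1a and Mdm2 differed by 0.50 and -0.01 and did not pass (adjusted p = 0.671 and 0.979 by limma). Of 8 kinases, phosphatases and partners of Rps6 and Rps19, 1 was higher and 1 lower. The phosphatase Ppp1cc rose by 0.42 (SE 0.06, adjusted p = 0.00651) and Rps19bp1 fell by 1.05 (SE 0.21, adjusted p = 0.0118).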
